A study of Mus musculus with 4 samples.

Results

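The RNA levels of 10 genes of simple epithelia, the keratins Krt7, Krt8, Krt18 and Krt19 and the claudins Cldn1, Cldn2, Cldn3, Cldn4, Cldn7 and Cldn8, were read in whole mouse kidney. The genes were taken by name, in a set chosen with earlier results of these data known. Their counts, set beside those of all genes below, are therefore descriptive only. All probe sets that the platform annotation gives to them were used, 19 of 22690 on each of 4 arrays, 6 of them for keratins and 13 for claudins. All 10 genes had at least 1 probe set, out of 12394 genes with a probe set of a single symbol. The brightest probe set of a gene, by its mean of the 4 arrays, stands for it, and 9 of the 10 passed the expression filter used for the counts over all genes, a mean at or above 6.27 (log2), which left 8207 genes. Krt19, with a mean of 6.21, lay just under that filter and Cldn4, with 6.93, was the member nearest above it.

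The series holds 1 array for each of 4 groups of C57BL/6 mice with the label male and an age of 17 weeks: GN+Captopril, GN+Water, Saline+Captopril and Saline+Water. Glomerulonephritis (GN), an inflammation of the filtering units of the kidney, was induced from about 8 weeks of age with intraperitoneal horse spleen apoferritin, 10 mg on 5 days a week, and 100 µg of Salmonella minnesota lipopolysaccharide 3 times a week as adjuvant. Both saline groups were injected with 0.15 M NaCl, and injections lasted 6 weeks in all groups. Both captopril groups received this inhibitor of angiotensin converting enzyme at 100 mg/kg/day in the drinking water, and kidneys were taken after 9 weeks. Groups had 6 mice each, and it is not stated how many of them gave RNA to an array. The title of the series places the question in interstitial injury of this model and its attenuation by such inhibitors. With 1 array per group, no difference below has a replicate check, an error or a p-value.

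Of the 4 arrays, 2 stand apart, and each result that rests on them is given with that limit. On the array labelled GN+Water, the level of Xist, made from the inactive X chromosome, was 8.97 (log2), against 5.02, 5.18 and 5.21 on GN+Captopril, Saline+Captopril and Saline+Water. Y-linked Eif2s3y was at 3.43 on it, near background, and between 8.02 and 8.29 on the others, so sex-linked transcripts go against its male label. On Saline+Water the median of 18 spike-in control probe sets was 10.8, against 7.46 to 7.89 on the others. Its correlation with the others over all probe sets was 0.945 to 0.966, while those 3 correlated with each other at 0.982 to 0.994.

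Keratins are the intermediate filament proteins of epithelial cells, and a filament is built from pairs of a type I and a type II chain. Krt8 (type II) and Krt18 (type I) form the basic pair of simple epithelia, while Krt7 (type II) and Krt19 (type I) are added in ducts and in the urothelium. Claudins are membrane proteins that form the strands of tight junctions and set which ions pass between the cells. Along the nephron, Cldn2 forms a cation and water pore in the proximal tubule, Cldn1 marks the parietal epithelium of the glomerular capsule, and Cldn3, Cldn4, Cldn7 and Cldn8 belong mainly to the distal nephron and collecting duct.

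The claudin genes Cldn1, Cldn4, Cldn7 and Cldn8 were highest on the array labelled GN+Water, and of the 4 keratin genes only Krt18 was. Of the 10 members, 5 had their highest level on that array (Krt18, Cldn1, Cldn4, Cldn7 and Cldn8), beside 27.8% of all genes past the filter. Another 4 (Krt7, Krt8, Krt19 and Cldn3) were highest on Saline+Water, beside 39.5% of all genes, and Cldn2 was highest on GN+Captopril. The members spread over 0.36 to 2.49 log2 units across the 4 arrays, with a median of 0.60, against a median of 0.51 over all genes. Without Saline+Water their median spread was 0.40, against 0.20 over all genes, and without the array labelled GN+Water it was 0.46, against 0.39. In whole kidney RNA, fewer cells of a type and less RNA per cell cannot be told apart.

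The stretches of DNA before the start sites of 5 members are shown because Cldn1, Cldn4, Cldn7 and Krt18 had their highest level on the same array, and Krt8, the filament partner of Krt18, did not. Each is the 250 bases before the annotated start from RefSeq (build GRCm38.p6), 5′ to 3′ on the strand of the gene, with the E-box CAGGTG or its reverse complement CACCTG in capitals. This E-box is the kind that repressors of the Snail and Zeb families are known to bind in genes of epithelial junctions.
Cldn1, chr16:26371840-26372089, minus strand: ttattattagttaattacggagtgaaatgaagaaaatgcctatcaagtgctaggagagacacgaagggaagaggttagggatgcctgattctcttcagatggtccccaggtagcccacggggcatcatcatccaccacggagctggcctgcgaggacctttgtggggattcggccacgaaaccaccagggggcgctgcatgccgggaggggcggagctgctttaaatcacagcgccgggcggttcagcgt
Cldn4, chr5:134946935-134947184, minus strand: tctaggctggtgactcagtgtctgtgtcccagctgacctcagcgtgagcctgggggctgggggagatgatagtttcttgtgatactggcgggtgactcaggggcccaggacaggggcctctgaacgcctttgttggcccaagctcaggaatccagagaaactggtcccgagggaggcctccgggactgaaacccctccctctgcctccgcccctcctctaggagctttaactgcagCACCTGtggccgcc
Cldn7, chr11:69964529-69964778, plus strand: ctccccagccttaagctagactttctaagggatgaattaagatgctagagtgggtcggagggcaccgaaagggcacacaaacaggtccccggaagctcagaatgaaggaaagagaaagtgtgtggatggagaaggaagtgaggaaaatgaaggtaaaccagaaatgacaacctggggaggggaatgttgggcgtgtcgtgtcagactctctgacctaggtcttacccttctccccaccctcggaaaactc
Krt8, chr15:102004343-102004592, minus strand: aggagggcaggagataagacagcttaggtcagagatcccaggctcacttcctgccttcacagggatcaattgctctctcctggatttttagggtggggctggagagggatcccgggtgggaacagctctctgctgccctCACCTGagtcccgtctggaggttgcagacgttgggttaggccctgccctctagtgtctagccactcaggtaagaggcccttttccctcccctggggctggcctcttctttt
Krt18, chr15:102027966-102028215, plus strand: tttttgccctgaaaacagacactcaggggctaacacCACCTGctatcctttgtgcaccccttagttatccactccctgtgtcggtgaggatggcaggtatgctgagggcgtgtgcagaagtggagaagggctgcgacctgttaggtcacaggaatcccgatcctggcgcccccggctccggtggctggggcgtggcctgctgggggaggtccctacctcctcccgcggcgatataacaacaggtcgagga
Of the 10 members, 8 had such a sequence, and Cldn7 had a pair of start sites, which gives 9 sequences. The E-box, searched on both strands, was in 5 of the 9 (Krt7, Krt8, Krt18, Cldn4 and the downstream start of Cldn7), beside 17.2% of 32851 promoters of the same length. In Krt8 it begins 111 bases before the start, in Krt18 214 and in Cldn4 14. The GC box GGGCGG or CCGCCC was also in 5 of the 9, beside 32.7%, and TATAAA or TTTATA in 1, Cldn2, beside 12.4%. Members with their highest level on the array labelled GN+Water are found both with this E-box (Krt18, Cldn4) and without it in the stretch shown (Cldn1). These are letter matches only and show no binding.

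Among the keratins, Krt8 (type II) and Krt18 (type I) did not move as a pair in comparisons with an array that stands apart. Krt8 was at 10.37 (log2) on GN+Captopril, 10.20 on the array labelled GN+Water, 10.14 on Saline+Captopril and 10.61 on Saline+Water. Saline+Water was thus the highest and the other 3 arrays lay within 0.22 of each other. Krt18 was at 7.88 on GN+Captopril, 8.06 on the array labelled GN+Water, 7.68 on Saline+Captopril and 7.47 on Saline+Water. Both GN levels of Krt18 lay above both saline levels, with a gap of 0.20, and Krt18 was the only one of the 10 members whose GN and saline arrays did not overlap; over all genes 16.1% lay above and 14.7% below. Between the array labelled GN+Water and Saline+Water the difference of Krt18 exceeded that of Krt8 by 0.997 log2 units, with 0.59 for Krt18 and -0.41 for Krt8. Between GN+Captopril and Saline+Captopril, a pair that holds neither of the arrays that stand apart, the 2 genes had differences close to each other, 0.20 for Krt18 and 0.22 for Krt8. The 3 probe sets of Krt8 pointed the same way in each of the 4 comparisons, but all 3 are of the kind shared between transcripts or genes.

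The ductal keratins stood highest on Saline+Water. Krt7 was at 9.17 on GN+Captopril, 9.60 on the array labelled GN+Water, 9.37 on Saline+Captopril and 9.79 on Saline+Water. Both captopril arrays were thus below both water arrays for Krt7, by 0.43 (log2) within GN and by 0.42 within saline, or 1.35-fold and 1.34-fold. Krt19 was at 6.11 on GN+Captopril, 6.23 on the array labelled GN+Water, 6.06 on Saline+Captopril and 6.42 on Saline+Water, a range of 0.36. Its captopril arrays were also both below its water arrays, by 0.12 within GN and 0.36 within saline. The brightest probe sets of Cldn3 and Cldn4 had this order too, and the share of all genes with it was not counted. Both water arrays are those that stand apart, and captopril and their properties cannot be told apart in this order. Neither gene reached 1.5-fold in any of the 4 comparisons.

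Cldn7, a claudin that binds the adhesion protein EpCAM, stood out on 1 array. It was at 8.30 on GN+Captopril, 9.32 on the array labelled GN+Water, 8.37 on Saline+Captopril and 7.98 on Saline+Water. The array labelled GN+Water exceeded the next highest by 0.95 (log2), and the other 3 lay within 0.39 of each other. Epcam, the gene of that partner, was at 9.29 on GN+Captopril, 9.91 on the array labelled GN+Water, 9.25 on Saline+Captopril and 9.19 on Saline+Water. It too was highest on the array labelled GN+Water, by 0.62, with the other 3 within 0.105 of each other.

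Cldn4 and Cldn8 are known to interact in the collecting duct, where they form a chloride pathway between cells. Cldn4 was at 6.82 on GN+Captopril, 7.29 on the array labelled GN+Water, 6.79 on Saline+Captopril and 6.84 on Saline+Water. Its level on the array labelled GN+Water was 0.45 above the next, and the other 3 lay within 0.04. Cldn8 was at 9.81 on GN+Captopril, 10.34 on the array labelled GN+Water, 10.02 on Saline+Captopril and 9.12 on Saline+Water. Here Saline+Water was the array farthest from the rest, 0.69 below GN+Captopril, and the array labelled GN+Water was 0.32 above the next.

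Cldn1 had the widest spread of the members, but in 1 probe set only. Its highest probe set, 1437932_a_at, was at 7.41 on GN+Captopril, 8.55 on the array labelled GN+Water, 7.59 on Saline+Captopril and 6.05 on Saline+Water. A second, 1450014_at, was at 6.47 on GN+Captopril, 7.06 on the array labelled GN+Water, 6.54 on Saline+Captopril and 6.60 on Saline+Water. Both were highest on the array labelled GN+Water, while the low level on Saline+Water was seen only in the first. The other 2 probe sets were near background on all 4 arrays, which means no higher than the 90th percentile of the array's 27 negative controls (4.36 to 4.81).

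Cldn2 and Cldn3 were the 2 claudins whose brightest probe set was not highest on the array labelled GN+Water. Cldn2, the pore claudin of the proximal tubule, was at 12.60 on GN+Captopril, 12.47 on the array labelled GN+Water, 12.55 on Saline+Captopril and 12.15 on Saline+Water, and its second probe set kept that order. Saline+Water was lowest and the other 3 lay within 0.13. Cldn3 was at 8.53 on GN+Captopril, 8.70 on the array labelled GN+Water, 8.47 on Saline+Captopril and 9.11 on Saline+Water. Of its 4 probe sets, 1434651_a_at and 1460569_x_at were highest on Saline+Water and 1426332_a_at and 1451701_x_at on the array labelled GN+Water, so its direction against Saline+Water is not settled. All 4 were a little higher on GN+Captopril than on Saline+Captopril, by 0.06 to 0.20.

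**Figure D1:**
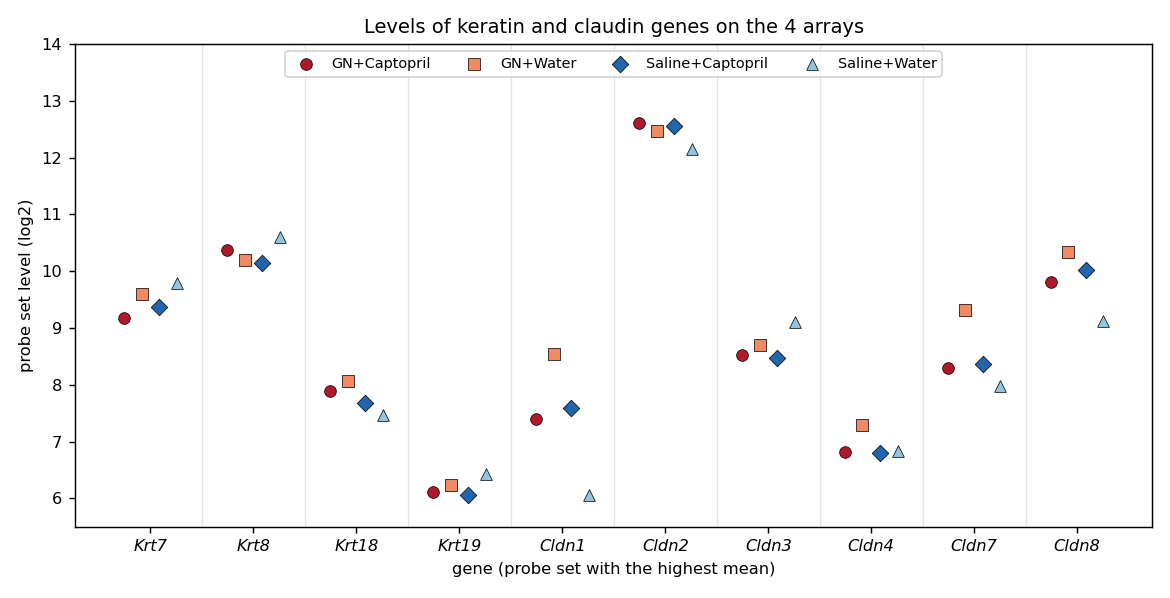
Level (log2) of each of the 10 genes on each of the 4 arrays, 1 point per array, for the probe set with the highest mean. The square of the array labelled GN+Water stands above the other points for Cldn1, Cldn4 and Cldn7, and the triangle of Saline+Water stands lowest for Cldn1 and Cldn8; levels of different genes are not comparable.

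**Figure D2:**
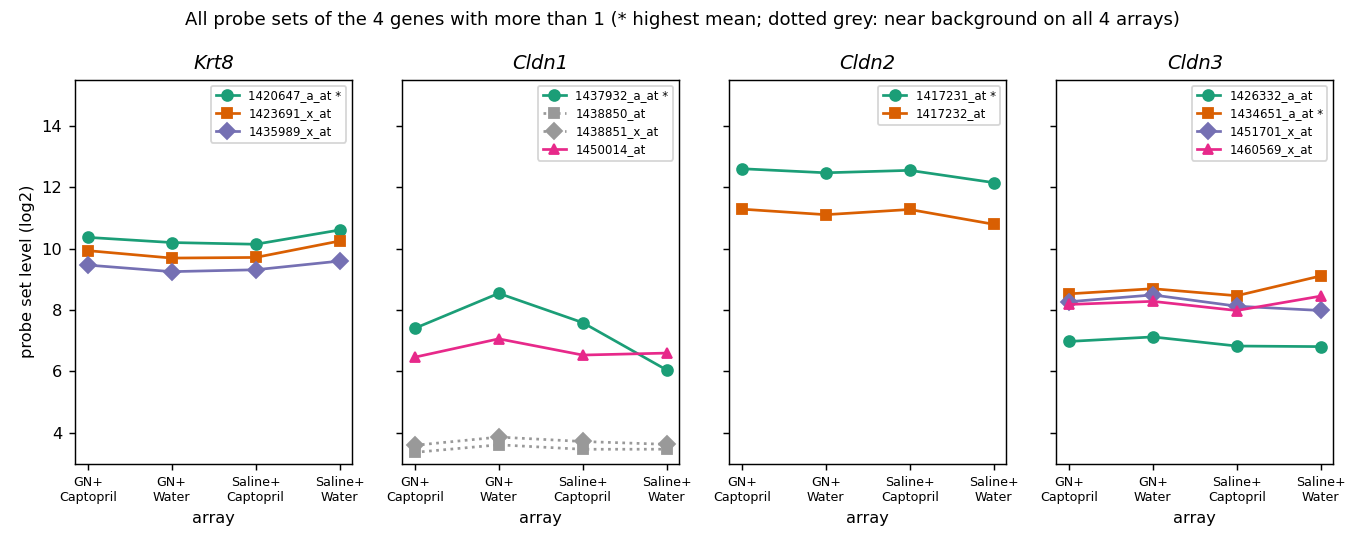
Level (log2) of every probe set of the 4 genes with more than 1, on each array. The 3 lines of Krt8 and the 2 of Cldn2 run in parallel, whereas for Cldn1 only 1437932_a_at drops on Saline+Water, to 6.05, and the 4 lines of Cldn3 split there.

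In the comparison of GN with saline on water, 4 members on the array labelled GN+Water were at least 1.5-fold above Saline+Water and 0 were at least 1.5-fold below it, beside 19.6% of all genes higher and 15.3% lower. Cldn1 was 5.63-fold higher, Cldn7 2.52-fold and Cldn8 2.33-fold, and Krt18 lay at the threshold itself with a log2 difference of 0.59, which was 0.49 after quantile normalisation and 0.53 after median centring, both short of 1.5-fold. As large a difference as that of Cldn1 was found in 0.999% of all genes, and as large as those of Cldn7 and Cldn8 in 7.3% and 9.59%. The median difference was 0.38 over the 10 members, -0.19 over the 4 keratins and 0.84 over the 6 claudins, against 0.00 over all genes. Against Saline+Captopril, used for Saline+Water, 2 members were at least 1.5-fold higher, Cldn1 at 1.94-fold and Cldn7 at 1.93-fold, beside 6.31% of all genes higher and 3.03% lower, and Cldn8 was 1.25-fold higher. The keratin median turned to 0.20 against Saline+Captopril, with 4 of 4 keratins positive, and the claudin median was 0.41 and that of all 10 members 0.28, against -0.01 over all genes. For Cldn1 the probe set 1450014_at gave a log2 difference of 0.46 from Saline+Water, in place of 2.49. On the same 2 arrays 9 of 11 leukocyte genes were at least 1.5-fold higher, with a median log2 difference of 1.93, and so were 10 of 12 injured tubule genes, with a median log2 difference of 1.35, and 3 of 10 principal cell genes, with a median log2 difference of 0.26. Their part in the claudin differences was not tested. GN, the discordant sex-linked transcripts of 1 array and the high spike-ins of Saline+Water cannot be told apart in this pair.

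Of the 69 other junction and keratin genes measured in 5 lists, 23.2% were at least 1.5-fold higher and 23.2% lower between these 2 arrays, beside the 19.6% and 15.3% of all genes past the filter. Among the 44 of them that passed the same filter, 34.1% were higher and 15.9% lower. Of 12 other claudin genes measured, 2 were at least 1.5-fold higher, Cldn16, the magnesium-handling claudin of the thick ascending limb, at 2.96-fold and Cldn15 at 2.09-fold. Another 2 were at least 1.5-fold lower, with Cldn14 at 2.43-fold, and the median was -0.15. Of 16 other keratin genes, 0 were higher and 6 lower, among them Krt13 at 2.0-fold and Krt10 at 1.95-fold. Of these 6, 2 were near background on all 4 arrays and 1 on 3, only Krt10 passed the filter, and the background limit was highest on Saline+Water, 4.81 against 4.36 to 4.51 on the others. Among 20 tight junction partners, 6 were higher and 4 lower, led by Ybx3, a transcription factor of junctions, at 3.3-fold and the scaffold gene Mpdz at 3.1-fold. Of 9 genes of adherens junctions and claudin-binding adhesion, 5 were higher and 0 lower, including Ctnna1 at 2.03-fold and Cdh1, the gene of E-cadherin, at 2.01-fold. Of 12 desmosome and linker genes, 3 were higher and 4 lower. Dsp, which ties keratin to desmosomes, was 6.32-fold higher and the plakoglobin gene Jup 2.33-fold lower. Most of these counts rest on Saline+Water: with Saline+Captopril in its place, 0 of the other claudin, other keratin and tight junction genes, 1 of the desmosome genes and 2 of the adhesion genes were at least 1.5-fold apart.

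In the comparison of captopril with water in GN, 2 claudin genes of the 10 members stood lower on the captopril array. Relative to the array labelled GN+Water, Cldn1 on GN+Captopril was 2.2-fold lower and Cldn7 2.03-fold lower, and 0 members were at least 1.5-fold higher, beside 4.52% of all genes lower and 3.7% higher. Cldn8 at 1.45-fold, Cldn4 at 1.38-fold and Krt7 at 1.35-fold lower did not reach the threshold. As large a difference as that of Cldn1 was found in 1.8% of all genes and as large as that of Cldn7 in 2.38%. The median was -0.30 over the 10 members, -0.15 over the keratins and -0.50 over the claudins, against 0.00 over all genes. Krt8 and Cldn2 were the 2 members with a positive difference, 0.17 and 0.13. The second Cldn1 probe set, 1450014_at, was lower by 0.60 (-0.60, log2). No other array can replace the one with discordant sex-linked transcripts here, and treatment and that property cannot be told apart in it.

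Of the same 69 genes, 1.45% were higher and 4.35% lower in this pair. Among the 44 of them past the filter, 2.27% were higher and 6.82% lower, beside the 3.7% and 4.52% of all genes past it. Of the 12 other claudin and 20 tight junction partner genes, 0 were at least 1.5-fold apart in either direction. Of the other keratins, only Krt10 was, at 1.52-fold higher. Among the desmosome genes 1 of 12 was lower, Dsg2, a desmosomal cadherin, at 2.49-fold, with levels of 7.30 on GN+Captopril, 8.61 on the array labelled GN+Water, 7.17 on Saline+Captopril and 6.97 on Saline+Water. Of 9 adhesion genes, 2 were lower, Cdh6 at 1.61-fold and Epcam at 1.53-fold. Of 11 epithelial transcription factor genes, 1 was higher, Ovol1 at 1.9-fold, and 0 lower.

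Some markers of the distal nephron and collecting duct and of other cells moved in the same pair, and their part in the claudin differences was not tested. No list held markers of the parietal epithelium, to which Cldn1 belongs. Of 10 principal cell genes of the collecting duct, 2 were lower on GN+Captopril, the water channel genes Aqp4 at 4.38-fold and Aqp2 at 1.55-fold, with a list median of -0.38. The list ranged from 5.53 to 10.3 on GN+Captopril and from 5.90 to 10.9 on the array labelled GN+Water. Intercalated cell genes had 2 of 4 lower, Slc26a4 at 1.74-fold and Foxi1 at 1.57-fold. Among genes of the distal convoluted tubule and the loop of Henle 3 of 9 were lower, with Pvalb at 3.63-fold and Calb1 at 1.96-fold. Of 11 proximal tubule genes, 1 was higher, the organic anion transporter gene Slc22a6 at 2.64-fold. Of 12 injured tubule genes, 9 were lower and 0 higher, with Lcn2 at 3.42-fold and Prom1 at 2.62-fold. Leukocyte genes were lower in 7 of 11, with a median of -0.65. Summed on the linear scale, the leukocyte list came to 10305 on GN+Captopril, 16406 on the array labelled GN+Water, 3579 on Saline+Captopril and 3263 on Saline+Water. The injured tubule list came to 11393, 19209, 10834 and 9728 on the same arrays in that order, and the principal cell list to 5582, 7289, 5879 and 5959. All 3 sums were highest on the array labelled GN+Water, as were Cldn1, Cldn4, Cldn7 and Cldn8. This was not particular to them. The sums of the intercalated cell, loop and distal tubule, tight junction, adhesion and transcription factor lists were also highest there. For the transcription factor list the sum was nearly the same on Saline+Water, 3244 against 3256. The sums of the proximal tubule and urothelium lists were highest on Saline+Water. Sums on the linear scale weigh the brightest genes of a list most. In the principal cell list, Scnn1a, Scnn1b and Hsd11b2 were highest on Saline+Water. Among 10 urothelial genes 1 was lower, Sprr1a at 2.95-fold; 2 of the list, Trp63 and Foxa1, were near background on all 4 arrays, and the uroplakin genes Upk1a, Upk2, Upk3a and Upk3b differed by -0.05, 0.07, -0.25 and 0.15 and the urothelial surface gene Psca by -0.44.

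**Figure D3:**
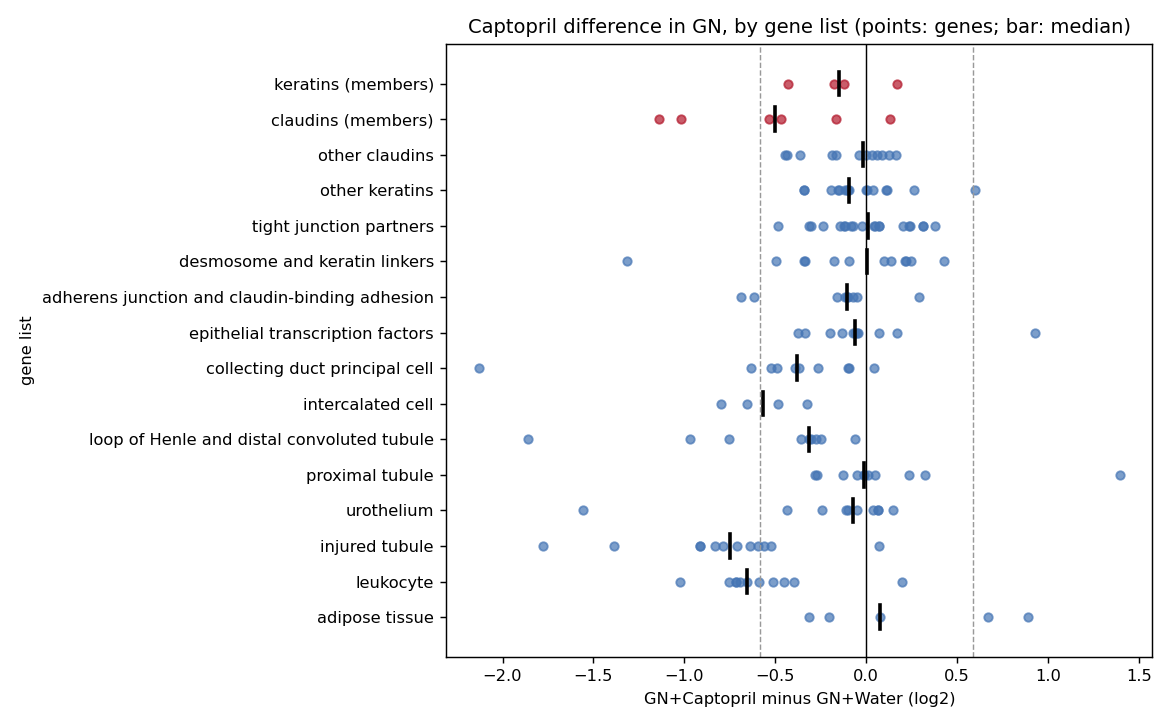
Log2 difference, GN+Captopril minus GN+Water, for the 4 keratins and 6 claudins (red) and for the genes of 14 other lists (blue), with each list's median as a bar and 1.5-fold as dashed lines. Cldn1 and Cldn7 lie left of the lower line, as do most injured tubule genes, while other claudins and tight junction partners lie between the lines.

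In the comparison of captopril with water in saline mice, 3 of the 10 members were at least 1.5-fold apart. Cldn1 was 2.91-fold and Cldn8 1.87-fold higher on Saline+Captopril, relative to Saline+Water, and Cldn3 was 1.56-fold lower, beside 15.6% of all genes higher and 10.2% lower. Krt7, Krt8 and Krt19 were lower by 0.36 to 0.46 log2 units (-0.36 to -0.46), Krt18 and Cldn7 were higher by 0.21 and 0.39, and the median over the 10 members was 0.08. The Cldn1 difference was -0.06 in 1450014_at and the Cldn3 difference was 0.02 and 0.14 in 2 of its 4 probe sets, so neither direction held over the probe sets. All of these values rest on Saline+Water, the array with high spike-ins. On the same 2 arrays, Dsp was 4.28-fold and Mpdz 3.87-fold higher and Jup 2.05-fold lower. Cell markers moved there too, and their part in the differences of the members was not tested. Of 9 genes of the distal convoluted tubule and the loop of Henle, 1 was higher and 2 lower, with Pvalb at 9.52-fold lower, the largest difference among all genes past the filter, and Calb1 at 2.1-fold lower. Of 11 leukocyte genes, 2 were higher and 1 lower, with Ptprc at 3.33-fold higher and a list median of -0.05. Of 12 injured tubule genes, 3 were higher and 1 lower, and of 10 principal cell genes 0 were higher and 2 lower, with Aqp4 at 1.82-fold lower.

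In the comparison of GN with saline on captopril, which uses neither array that stands apart, no member reached 1.5-fold. Of the 10 members, 0 were at least 1.5-fold apart on GN+Captopril and Saline+Captopril, beside 1.85% of all genes higher and 0.207% lower. The differences lay between -0.21 (Cldn8) and 0.22 (Krt8), with a median of 0.04, against 0.00 over all genes. The median size, without regard to sign, was 0.13 over the members and 0.08 over all genes. Krt8 and Krt18 were 1.17-fold and 1.15-fold higher, and Krt7 was 1.14-fold lower. None of the other claudin, keratin, tight junction, desmosome, adhesion or transcription factor genes measured reached 1.5-fold here either. On the same arrays 9 of 11 leukocyte genes were at least 1.5-fold higher, among them Lyz2 at 9.17-fold, and 4 of 12 injured tubule genes were, including the intermediate filament gene Vim at 1.81-fold. Adipose genes were higher in 3 of 5, with Adipoq at 2.22-fold. With Saline+Water in place of Saline+Captopril, 2 members were at least 1.5-fold higher on GN+Captopril and 1 lower. The share of all genes was not counted for that pair. For Saline+Captopril against the same Saline+Water array it was 15.6% higher and 10.2% lower.

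**Figure D4:**
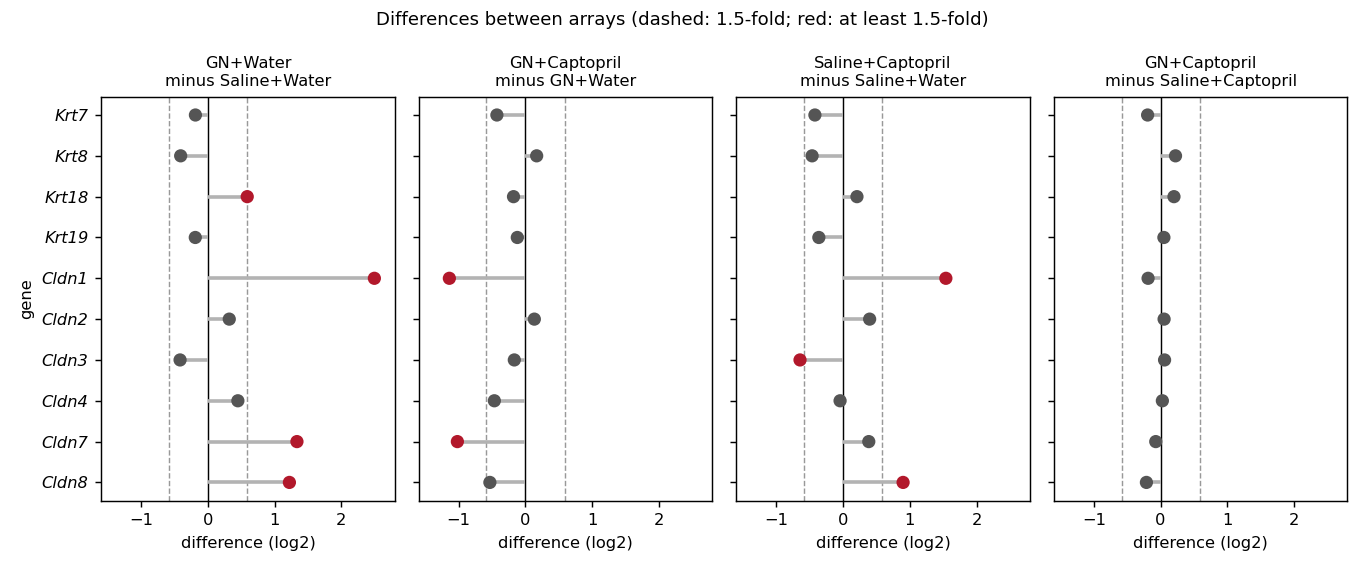
Log2 differences of the 10 genes in the 4 comparisons, 1 panel each, with 1.5-fold as dashed lines and genes at least 1.5-fold apart in red. Red points are 4, 2, 3 and 0 from left to right, and in the last panel every gene lies between -0.21 and 0.22.

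The GN difference on captopril minus the GN difference on water had a median of -0.33 over the 10 members. Its median over all genes was not computed, so -0.33 cannot be called particular to the members. The value was -2.68 for Cldn1, -1.43 for Cldn8 and -1.41 for Cldn7, and 0.63 for Krt8. For Cldn1 it was -0.96 with the mean of all probe sets and -0.53 from 1450014_at, without the shared probe sets. It uses all 4 arrays, including both that stand apart, and no residual degree of freedom remains to test it. For Krt7 it was -0.01, the smallest in size.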

How the data were processed

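The deposited table holds log2 probe set values made by the authors, as judged from their range. GCOS and RMA are named in the submitters' processing notes, with no version or role, and how background was corrected and arrays were normalised is not stated. The values were taken as they stand, without detection calls; 1 array per group limits their precision.

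Of 22690 probe sets, 20393 had 1 symbol in the platform annotation, 691 several and 1606 none; 20364 were named through the Entrez ID with RefSeq symbols (GRCm38.p6). Of several probe sets of a gene, the brightest on average was used. All genes means the 8207 with a mean at or above the 40th percentile of all probe sets. Differences are log2 values of 1 array minus another, in 4 comparisons, counted at 1.5-fold in Python 3.11.15 with pandas 2.3.3 and numpy 2.4.6. Spike-ins are bioB, bioC, bioD and cre; negative controls are dap, lys, phe, thr and trp. The counting was tested on simulated data.

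From each other list, up to 3 genes at least 1.5-fold apart were named per comparison, the largest first, and other list genes were named after their values were seen. The members and lists were chosen with earlier results of these data known. Promoter sequences end before the start site; Krt19 and Cldn8 had none in the table used, and the stretch before the downstream start of Cldn7 is not printed because it lies inside the gene. Alternatives were quantile normalisation, median centring, the mean of all probe sets, leaving out shared probe sets, filters, a 2-fold threshold and another array in place of a doubted one.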

Additional observations from a re-analysis of the deposited data

Results flagged for a closer look

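In 4 genes the GN difference ran in opposite directions on captopril and on water; with 1 array per group this was not tested. For Cldn1 it was -0.19 on captopril and 2.49 on water, a difference of -2.68 (log2) between them. The Cldn1 value rests on 1 probe set: it was -0.96 with the mean of all 4, and -0.53 without shared probe sets, which is under the limit of 0.585 used here. For Cldn8 it was -0.21 on captopril and 1.22 on water, a difference of -1.43. For Cldn7 it was -0.07 on captopril and 1.33 on water, a difference of -1.41. On captopril 52.6% of all genes were as far apart as Cldn7 or farther, so its direction there is close to no difference. For Krt8 it was 0.22 on captopril and -0.41 on water, a difference of 0.63. The differences on water use both the array labelled GN+Water, whose sex-linked transcripts go against its label, and Saline+Water, whose spike-ins are high. Opposite directions were listed only where the difference between them was at least 0.585, which is 1.5-fold. The share of all genes that meet this rule was not counted, so the 4 genes cannot be set against it.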

How the results depend on the processing

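Quantile normalisation and median centring moved no value of a member by 1.5-fold and no count or median past its tolerance (1.5 times for a count, 0.25 log2 for a median). For the values under median centring this was fixed in advance, because the array medians lay between 6.93 and 6.99 (log2). Both alternatives put Krt18 under 1.5-fold on the array labelled GN+Water against Saline+Water, which leaves 3 members in place of 4. Against Saline+Captopril, used for Saline+Water, 2 members and not 4 were at least 1.5-fold apart on the array labelled GN+Water. For GN+Captopril against that array, 1 member in place of 2 was with the mean of all probe sets and 1 among the 7 past the 60th percentile. For Saline+Captopril against Saline+Water, 1 member in place of 3 was with the mean of all probe sets, with shared probe sets left out and with a 2-fold threshold. With Saline+Water in place of Saline+Captopril, 3 members in place of 0 were apart from GN+Captopril, a pair for which all genes were not counted. Leaving out shared probe sets leaves 7 members. Krt7, Krt8 and Cldn3 have only shared probe sets, so their values could not be checked in this way. The same step turned Cldn1 to -0.064 on Saline+Captopril against Saline+Water, from a different probe set. Of 205 values of single members under an alternative, 191 stayed within 1.5-fold of the reported difference and 14 moved further. Many of the 191 could not have moved, so this share is no measure of stability. Median centring, with 40 of the values, shifts all genes of an array alike. For the 6 members with 1 probe set, the probe set alternatives give the same value or none. The sign changed in 17 of the 205, of which 12 had 1 saline array in place of the other. Of the 17, 3 were at least 1.5-fold apart as reported or under the alternative. These were Cldn1 above, and Cldn1 and Cldn8 on GN+Captopril, at 1.35 and 0.69 against Saline+Water. The causes were not tested. No paired analysis was possible because each group has 1 array. Without replicates, a member's difference cannot be set against the spread between animals, and Cldn1 and Cldn3 also depend on the probe set.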
